A study of Danio rerio with 12 samples.

Results

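The changes in gene expression that 2 different synthetic microRNAs had in common were described in whole zebrafish (Danio rerio) embryos by RNA sequencing. The 7 libraries used from treated embryos, 4 with miR-101a and 3 with miR-29a, were set against the 4 libraries of control embryos, which makes 11 of the 12 libraries of the series. Each microRNA counted with equal weight, so that the pooled change of a gene is the mean of its changes with miR-101a and with miR-29a. The libraries were chosen by their labels, and replicate 3 of miR-29a was left out because its values were known to stand apart from those of its group.

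All embryos were of a wild-type strain, 2 days old and sampled as whole organisms. The control embryos had no perturbation, whereas those of each microRNA group carried 2 ng of the synthetic microRNA, miR-101a or miR-29a. No mock-treated group is labelled and the route of delivery is not stated, so a change shared by both groups cannot be told apart from an effect of the procedure itself. Whether replicates were separate clutches is not stated, and p-values therefore measure only the spread between samples, which may be technical. In whole embryos, fewer cells of a type and less RNA per cell of that type cannot be told apart.

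MicroRNAs are loaded into Argonaute proteins and pair with sites in messenger RNAs, whose stability or translation then drops. The miR-29 family is best known for targeting collagens and other matrix genes, while EZH2, which methylates histone H3 for Polycomb silencing, is a well known target of miR-101. The 2 microRNAs have different seeds, the bases near the 5′ end that pair with a target.

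Depth ran from 19804199 to 30383374 counts per library. Counts were high enough for a test in 21085 of 32105 genes, and libraries of a group varied with a biological coefficient of variation of 7.72%. Ribosomal protein genes held 8.51% to 9.02% of counts in control libraries, 8.02% to 8.80% with miR-101a and 7.57% to 8.08% with miR-29a. Mitochondrially encoded genes held 2.37% to 2.47% in control, 2.61% to 2.87% with miR-101a and 2.59% to 2.81% with miR-29a, so both treated groups lay above control in this share. The part of these shifts in the results was not tested. Marker genes of lens, retina, blood, muscle, heart, liver, epidermis and neurons were all present, and list members that had 0 counts in all 11 libraries are named with their list.

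A gene was called in the pooled comparison at an adjusted p under 0.05 (edgeR's quasi-likelihood test with Benjamini-Hochberg adjustment over all genes tested), and each log2 fold change stands with its standard error (SE). In that comparison 5302 genes were higher (25.1% of those tested) and 5752 lower (27.3%). A gene was counted as shared when it was called and when all 4 miR-101a and all 3 miR-29a libraries lay on the same side of all 4 control libraries in CPM, the count scaled to a common library size. By this definition 2869 genes were shared higher (13.6% of those tested) and 2950 shared lower (14.0%), which are the shares against which each list of genes below can be read. Without the need for a call the separation of libraries alone gave 2884 and 2969. Leaving out a library eases this separation and adding one tightens it. Part of any change in shared counts between such sets of libraries therefore follows from the definition. Both microRNA groups were compared with the same 4 control libraries, so a chance deviation of the controls enters both changes and no agreement between them is given beyond these counts.

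Most shared changes were small. The median pooled log2 fold change was 0.65 in the shared higher genes, with the middle 80% between 0.28 and 1.51, and -0.39 in the shared lower genes, with the middle 80% between -1.43 and -0.21, beside -0.0089 over all genes tested. A change of at least 2-fold with each microRNA was seen in 492 of the shared higher and 315 of the shared lower genes, of at least 4-fold in 81 and 67, and of at least 8-fold in 19 and 13. The nearest treated and control libraries were separated by a median of 0.21 on the log2 scale in the shared higher genes and 0.12 in the shared lower genes. They were less than 0.1 apart in 808 and 1244 genes, and a further 1012 and 1160 called genes missed the definition by 1 of the 7 treated libraries.

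Lists of genes for 40 pathways, cell types and target groups held 1048 tested genes, of which 197 were shared higher and 244 shared lower. The lists for lens, retina, DNA replication, respiratory chain, ribosome biogenesis and pituitary had 0 genes called higher by edgeR's quasi-likelihood test, and 0 also at an unadjusted p under 0.05, and none had a shared higher gene by DESeq2. List medians below are of pooled log2 fold changes unless a microRNA is named.

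**Figure D1:**
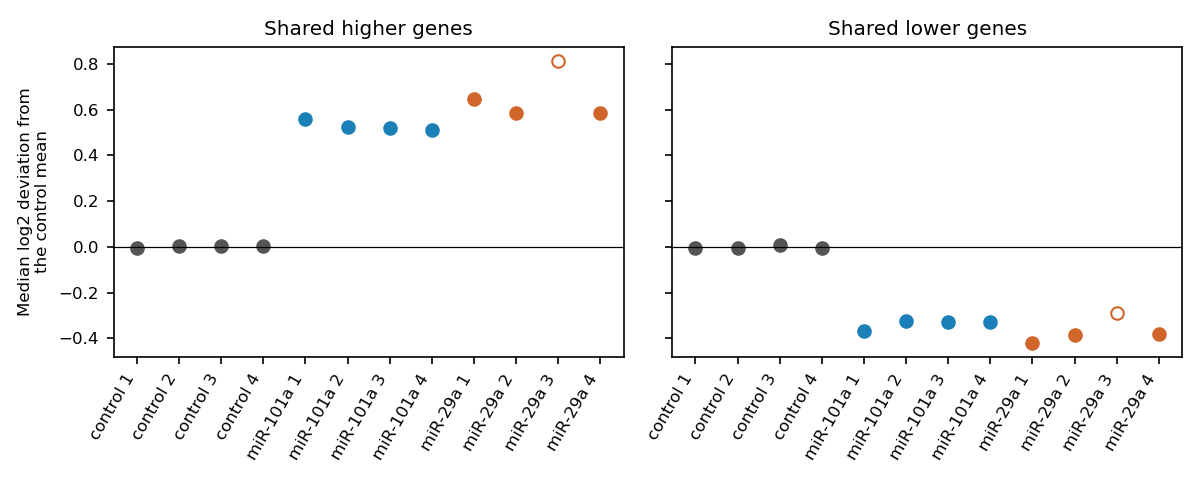
Median deviation of each library from the control mean (log2 of CPM, vertical axis), over the 2869 shared higher genes (left) and the 2950 shared lower genes (right), for each of the 12 libraries (horizontal axis). Filled points are the libraries that defined these genes, so their separation follows from the definition. The open point is miR-29a replicate 3, which was not used to define them: it stood at 0.81 for the higher and -0.29 for the lower genes.

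The library that was left out gave values that had not chosen the genes. In miR-29a replicate 3 the level lay above every control library in 2280 of the 2869 shared higher genes (79.5%), where 47.1% of all tested genes did so, and below every control library in 1780 of the 2950 shared lower genes (60.3%), where 42.5% of all tested genes did so. It lay on the opposite side of control in 421 of the higher (14.7%) and 939 of the lower genes (31.8%). It carries more reads of ribosomal protein genes than the others, 14.6% of its counts, and 3.47% of mitochondrial ones, and the part of this in its values was not tested. Since it is a miR-29a library and is compared with the same controls, it bears on the miR-29a side of a shared change and not on the miR-101a side.

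Shared genes were ranked by the smaller of their 2 log2 fold changes. Only genes with a symbol other than a clone or locus name were ranked. They also needed a mean of at least 1 CPM where they were higher, in control or in each microRNA group. This left out il11b, lepb and il11a, described below, whose means with miR-101a were under 1 CPM. The ranked higher genes with the largest change included arf4b, FADS3, MSMO1, CHRNG, ms4a17a.4, LSS, fas, SCD, isg15, mucms1, cbx7a, cxcl18b, CYP51A1 and prss59.1. Of these, 5 are sterol or fatty acid enzymes. The ranked lower genes with the largest change included ponzr4, ponzr3, gvin1l2, crygm2d14, FKBP5, crygm2d15, crygm2d16, CYP2R1, crygm2d18, crygm2d11, SLCO2A1, crygm2d20, leap2 and il4i1, among them 6 crystallins of the lens. In miR-29a replicate 3 all of these higher and lower genes lay beyond the control libraries on the same side. The side, judged with all 12 libraries on one scale, does not give the size. crygm2d11 stood there at 2.54 CPM, near the lowest control library (2.64), while the highest other miR-29a library held 0.481. CPM printed for replicate 3 were scaled over all 12 libraries and the others over 11, so close values compare only roughly.

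**Figure D2:**
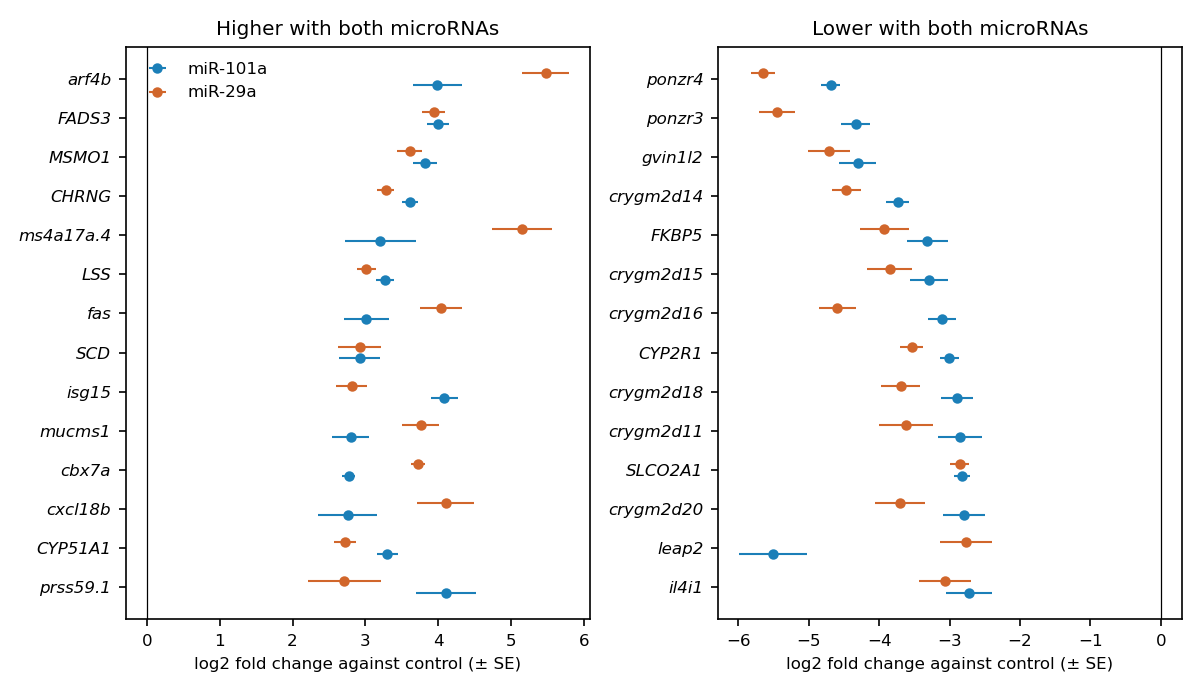
Log2 fold change against control (horizontal axis, ± SE) of the shared higher genes (left) and shared lower genes (right) named in the text for the largest smaller change, with miR-101a (blue) and with miR-29a (orange). Points for FADS3, SCD and SLCO2A1 nearly coincide, while the points for leap2 lie far apart.

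Cells make cholesterol from acetyl-CoA through the mevalonate pathway and squalene, and SREBP transcription factors switch on these enzymes and the low density lipoprotein (LDL) receptor when membranes hold little sterol. Of the 23 sterol synthesis genes tested, 19 were shared higher and 1 shared lower, with a median pooled log2 fold change of 1.71 (1.76 with miR-101a and 1.58 with miR-29a). The rises ran through the whole pathway, from the thiolase ACAT2 (0.74) and the synthase HMGCS1 (1.89) to the reductase DHCR7 (1.304), and were largest in MSMO1 and LSS.

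MSMO1, the methylsterol monooxygenase, stood at 2.25, 3.31, 2.19 and 3.30 CPM in the control libraries, at 37.2, 39.5, 48.5 and 31.7 with miR-101a and at 33.0, 37.5 and 31.2 with miR-29a. Every treated library lay more than 9-fold above the highest control library, and the pooled change was 3.72 ± 0.16 on the log2 scale (SE, adjusted p = 1.6e-09). The lanosterol synthase LSS stood at 1.86, 3.05, 3.39 and 2.82 CPM in control, 28.0, 27.0, 29.5 and 24.0 with miR-101a and 20.4, 25.3 and 22.4 with miR-29a, a change of 3.14 ± 0.12 (adjusted p = 4.3e-12). CYP51A1, the lanosterol demethylase and one of the largest rises in the ranking above but not a member of the list, changed by 3.30 ± 0.14 with miR-101a and 2.72 ± 0.15 with miR-29a.

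A few enzymes stood outside this rise. GGPS1, which makes geranylgeranyl diphosphate in a side branch, was at -0.10 (not called), and the second SQLE copy (ENSDARG00000063319) was at 0.34 (not called). LBR, a nuclear envelope protein with sterol reductase activity, was the shared lower member at -0.38 ± 0.049 (-0.088 with miR-101a and -0.67 with miR-29a). It left the shared set when any 1 of the 7 treated libraries except miR-101a replicate 2 or 3 was left out, and also with RLE scaling or another count filter, and was not called with the 7 treated libraries as a single group (adjusted p = 0.12). The direct comparison of the microRNAs was called in 11 of the 23 genes (43.4% of all genes tested were called in it), among them EBP, which was 2.65 with miR-101a and 1.70 with miR-29a.

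**Figure D3:**
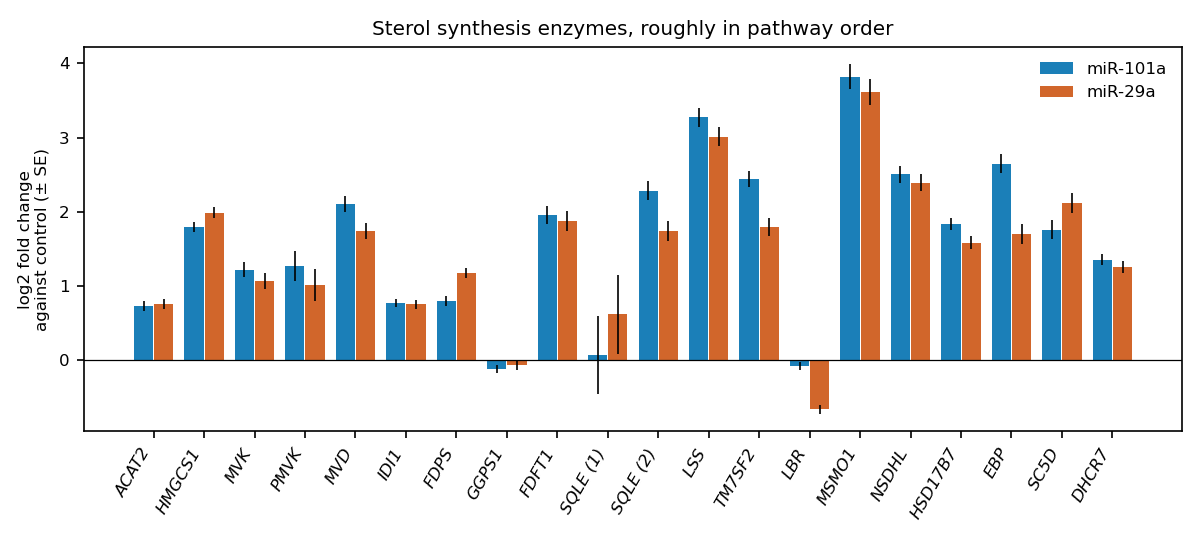
Log2 fold change against control (vertical axis, ± SE) of 20 of the 23 sterol synthesis genes tested, roughly in pathway order (horizontal axis), with miR-101a (blue) and miR-29a (orange). SQLE (1) is ENSDARG00000063319 and SQLE (2) ENSDARG00000079946. All enzymes shown but GGPS1, SQLE (1) and LBR stood above 0.7 with both microRNAs.

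Genes of sterol uptake, esterification and fatty acid synthesis moved with the enzymes in part. Of 27 tested 13 were shared higher and 2 shared lower, with a median of 0.26. The LDL receptor ldlra stood at 2.73, 2.72, 3.43 and 2.58 CPM in control, 18.6, 15.3, 18.9 and 14.5 with miR-101a and 19.0, 17.9 and 21.5 with miR-29a, so that the lowest treated library was more than 4-fold above the highest control library (log2 change 2.66 ± 0.11, adjusted p = 3.1e-12). The fatty acid desaturase SCD rose by 2.92 ± 0.26. FADS3, named for a fatty acid desaturase, stood at 3.85, 4.31, 4.88 and 3.06 CPM in control, 69.9, 63.3, 75.7 and 49.8 with miR-101a and 59.96, 61.9 and 64.1 with miR-29a, with no difference called between the microRNAs (-0.061 ± 0.13, adjusted p = 0.73).

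SOAT2, which esterifies cholesterol for storage or export, went the other way. It stood at 14.2, 14.1, 15.6 and 14.2 CPM in control, 1.77, 2.54, 3.10 and 2.78 with miR-101a and 0.305, 1.402 and 0.552 with miR-29a, a fall of 3.39 ± 0.19 on the log2 scale that was larger with miR-29a (difference -1.74 ± 0.33, adjusted p = 7.4e-04). The other shared lower member was a copy of NPC2 (ENSDARG00000096979), a lysosomal sterol carrier, at -1.89 ± 0.26. In miR-29a replicate 3 this copy did not lie below control, at 5.28 CPM beside 4.13 to 5.58 in the control libraries. Without miR-29a replicate 1 the shared lower members numbered 4.

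**Figure D4:**
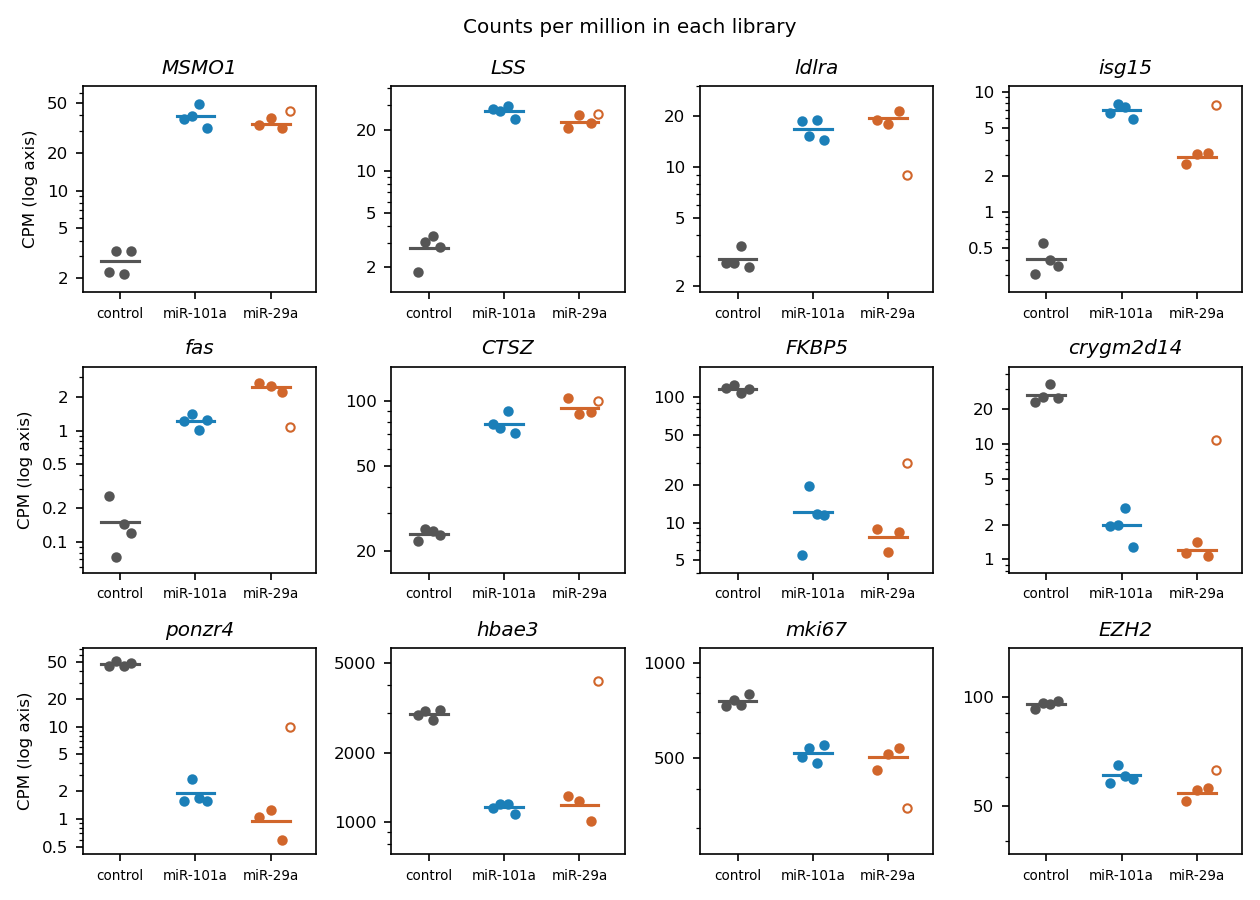
CPM (log axis) of 12 genes in each library of the control (grey), miR-101a (blue) and miR-29a (orange) groups, with a line at the group mean. The open point is miR-29a replicate 3, which was left out of the values given here except where the text says that it is in the fit. MSMO1, LSS, ldlra, isg15, fas and CTSZ were higher in all 7 treated libraries used, and FKBP5, crygm2d14, ponzr4, hbae3, mki67 and EZH2 were lower. The open point of hbae3, at 4149.9 CPM, lay above control.

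Lysosomes break down proteins, lipids and sugar chains taken up or made surplus by the cell. Of 33 lysosomal genes tested 23 were shared higher and 0 shared lower (median 0.75), and all 23 lay above control in miR-29a replicate 3 as well. CTSZ, a cathepsin, stood at 22.3, 25.4, 24.8 and 23.9 CPM in control, 78.2, 74.4, 89.7 and 70.6 with miR-101a and 103, 87.1 and 89.1 with miR-29a. Every treated library lay more than 2-fold above the highest control library (pooled change 1.82 ± 0.070, adjusted p = 4.9e-12), while the libraries of the 2 microRNAs overlapped and the difference between them was 0.25 ± 0.076 (adjusted p = 0.014). The summed level of the list ran from 2605 to 2846 CPM in control, from 4077 to 4704 with miR-101a and from 6103 to 7528 with miR-29a. Shared lower members appeared when a single library was left out, 2 without control replicate 4 and 1 without miR-101a replicate 2.

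Interferon signals through STAT proteins and irf9 to genes that act against viruses. Of 23 tested genes of this response 10 were shared higher and 0 shared lower, with a median of 1.03. isg15, a ubiquitin-like protein, stood at 0.303, 0.552, 0.401 and 0.357 CPM in control, 6.65, 7.96, 7.51 and 5.91 with miR-101a and 2.49, 3.04 and 3.11 with miR-29a. All 7 treated libraries were above control and the miR-101a libraries above the miR-29a libraries (log2 difference between the microRNAs -1.27 ± 0.15, adjusted p = 2.7e-06). In miR-29a replicate 3, however, isg15 stood at 7.76 CPM, at about the level of the miR-101a libraries. irf9 stood at 6.45, 5.85, 5.39 and 6.32 CPM in control, 21.0, 20.8, 21.1 and 20.8 with miR-101a and 30.4, 27.0 and 26.0 with miR-29a, with the higher level in the miR-29a libraries. The RNA sensing factor irf3 rose by 1.86 ± 0.20. Leaving out miR-29a replicate 4 or control replicate 3 gave 1 shared lower member.

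Genes of acute inflammation, the cytokines, chemokines and proteases that follow tissue injury or infection, were mostly higher with both microRNAs. Of 27 tested 20 were shared higher and 1 shared lower, with a median of 1.82 (1.22 with miR-101a and 2.28 with miR-29a), and a copy of socs3a (ENSDARG00000025428) had 0 counts. The cytokine gene il11b had 0 counts in every control library and stood at 1.19, 0.152, 0.149 and 0.155 CPM in the miR-101a libraries and at 3.14, 1.60 and 4.24 in the miR-29a libraries. The most that 0 counts allow was taken as 3 counts over the 4 control libraries together (0.0292 CPM). On this basis il11b was at least 15.9-fold higher with miR-101a (48 counts) and at least 105-fold higher with miR-29a (235 counts). These limits cover the counting error of the control libraries only, and the treated counts were taken as they stand. Without miR-101a replicate 1, which held most of those 48 counts, the first limit was 5.21-fold. With all 11 libraries the change of il11b with miR-101a alone was not called by edgeR's test (adjusted p = 0.054). Its change with miR-29a alone was called (adjusted p = 0.0023).

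Its paralog il11a rose by 4.35 ± 0.57 on the log2 scale (adjusted p = 9.8e-06) and the leptin gene lepb by 5.03 ± 0.89 (adjusted p = 5.7e-04), from 0.0433, 0, 0.0365 and 0.0794 CPM in control to 1.67, 0.254, 0.261 and 0.386 with miR-101a and 1.96, 2.52 and 4.24 with miR-29a. The chemokine cxcl18b stood at 0.736, 0.920, 0.911 and 0.715 CPM in control, 9.26, 4.56, 4.03 and 4.21 with miR-101a and 18.2, 9.33 and 15.3 with miR-29a. In lepb, cxcl18b and the collagenase mmp13a the highest miR-101a library was replicate 1. For mmp13a the change was 1.87 ± 0.72 with miR-101a and 4.50 ± 0.69 with miR-29a, and 1.199 (adjusted p = 0.18) with miR-101a when replicate 1 was left out. nfkbiab, an inhibitor of NF-kappa-B, was the shared lower member (-0.51 ± 0.055); in miR-29a replicate 3 it stood above control at 129.8 CPM, and with that library in the fit it was not called (adjusted p = 0.80).

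Markers of macrophages and neutrophils did not move as a group. Of 24 tested 3 were shared higher and 1 shared lower (median -0.18), and cxcr1 had 0 counts. Their summed level ran from 262 to 277 CPM in control, from 280.2 to 316 with miR-101a and from 178 to 228 with miR-29a, so it was above control with miR-101a and below it with miR-29a. The perforin-like MPEG1 (ENSDARG00000043093) rose by 1.82 ± 0.31 and nccrp1 by 0.60 ± 0.065, while 2 copies of MFAP4 moved apart (0.75 ± 0.20 for ENSDARG00000090557 and -2.05 ± 0.19 for ENSDARG00000088745), and such close copies can share reads. The count of lower members was 2 or 3 when some single libraries were left out (3 without miR-101a replicate 1, 2 without miR-29a replicate 1 or 4 or control replicate 2). The part of immune cell number in the inflammation and lysosome results was not tested.

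The p53 protein induces cell cycle and death genes after DNA damage or other stress. Of 29 tested genes 12 were shared higher and 4 shared lower (median 0.27). The death receptor fas stood at 0.260, 0.0736, 0.146 and 0.119 CPM in control, 1.22, 1.42, 1.01 and 1.24 with miR-101a and 2.66, 2.52 and 2.24 with miR-29a, with no overlap between any 2 groups (pooled change 3.52 ± 0.27, adjusted p = 6.0e-09). In miR-29a replicate 3 fas stood at 1.09 CPM, above control but within the range of the miR-101a libraries. The pro-apoptotic bbc3 stood at 2.03, 1.73, 2.22 and 1.75 CPM in control, 8.004, 4.31, 5.60 and 5.29 with miR-101a and 7.06, 5.97 and 6.18 with miR-29a, and no difference between the microRNAs was called (0.12 ± 0.16, adjusted p = 0.58). rps27l rose by 1.06 ± 0.067. The shared lower members fell little, the transcription factor foxo3a by 0.35 ± 0.044 and the DNA repair protein XPC by 0.29 ± 0.067.

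In the unfolded protein and amino acid stress list 30.3% of genes were shared in either direction, and in the cytosolic heat shock list 31.8%. This stood beside 27.6% over all genes tested. Of 33 genes of the unfolded protein and amino acid stress response 7 were shared higher and 3 shared lower (median 0.052). The stress transcription factor DDIT3 stood at 10.3, 11.3, 11.4 and 11.8 CPM in control, 45.6, 39.4, 32.4 and 39.5 with miR-101a and 61.8, 56.6 and 58.9 with miR-29a, without overlap between any 2 groups. In miR-29a replicate 3 DDIT3 stood at 19.4 CPM, above control but below every miR-101a library. ATF3 rose by 1.42 ± 0.19 and nupr1a by 1.08 ± 0.057, while the mitochondrial folate enzyme mthfd2 fell by 0.78 ± 0.050. Of 22 cytosolic heat shock genes 5 were shared higher, led by a copy of HSPA8 (ENSDARG00000037403, 1.49 ± 0.14), and 2 shared lower, led by hspb9 (-2.82 ± 0.19). None of the 35 proteasome subunits was shared in either direction, 1 was called higher and 9 lower, and the median was -0.056. Without miR-29a replicate 1 there were 4 shared lower proteasome genes, and without control replicate 2 there was 1.

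Cortisol acts through the glucocorticoid receptor on genes such as FKBP5, a co-chaperone that feeds back on the receptor, and KLF9, a transcription factor. FKBP5 stood at 118, 124, 108 and 116 CPM in control, 5.56, 19.6, 11.7 and 11.5 with miR-101a and 8.85, 5.81 and 8.35 with miR-29a. All 7 treated libraries were at least 5-fold below the lowest control library, and the pooled fall was 3.62 ± 0.25 on the log2 scale (adjusted p = 3.3e-06). KLF9 stood at 7.10, 7.91, 7.18 and 8.34 CPM in control, 1.25, 2.33, 1.87 and 1.97 with miR-101a and 0.916, 1.04 and 0.932 with miR-29a, lower with miR-29a than with miR-101a (difference -0.91 ± 0.21, adjusted p = 0.0020). The amino acid enzyme TAT fell by 1.77 ± 0.13, but IGFBP1, which binds insulin-like growth factors, rose from 14.2, 12.6, 15.5 and 13.2 CPM in control to 62.9, 53.2, 59.0 and 54.9 with miR-101a and 27.5, 35.6 and 26.5 with miR-29a. In all, 8 of 23 genes of the list were shared lower and 5 shared higher (median -0.24), and the receptor gene NR3C1 itself rose by 0.16. In miR-29a replicate 3, 4 of the 8 lower and 2 of the 5 higher members lay on the same side as in the other libraries.

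Circadian clock genes moved in both directions, 12 shared higher and 6 shared lower of 29 tested (median 0.15). The output factors tefa and dbpb and the repressor BHLHE40 rose by 0.78 ± 0.042, 0.98 ± 0.13 and 0.80 ± 0.057. tefa stood at 63.1, 63.6, 63.6 and 65.1 CPM in control, 119, 118, 109 and 111 with miR-101a and 111, 107 and 100.2 with miR-29a. The nuclear receptor nr1d2a went down, from 36.1, 38.5, 38.5 and 38.3 CPM in control to 16.0, 19.0, 16.7 and 19.98 with miR-101a and 12.2, 12.4 and 12.3 with miR-29a, and so did hlfa (-0.88 ± 0.094) and tefb (-0.79 ± 0.064). Of these members 7 of the 12 higher and all 6 lower lay on the same side of control in miR-29a replicate 3, and with that library in the fit 7 were shared higher. Against a 1.2-fold minimum 3 were shared lower. The time of day at sampling is not stated, and its part in these changes was not tested.

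The first 3 of the ranked shared lower genes belong to the ponzr and gvin families. ponzr4 stood at 44.9, 50.7, 45.5 and 48.7 CPM in control, 1.58, 2.74, 1.68 and 1.58 with miR-101a and 1.05, 1.24 and 0.587 with miR-29a, a pooled change of -5.17 ± 0.12 (adjusted p = 3.5e-14). ponzr3 stood at 70.26, 75.7, 73.1 and 76.4 CPM in control, 2.83, 6.14, 3.70 and 2.51 with miR-101a and 2.398, 1.24 and 1.48 with miR-29a. gvin1l2, of a family of large interferon-inducible GTPases, stood at 91.5, 117, 96.3 and 112 CPM in control, 2.70, 8.21, 5.60 and 5.33 with miR-101a and 2.88, 3.85 and 5.004 with miR-29a. In each of the 3 genes the control libraries lay close together and every treated library used was at least 10-fold below them. In miR-29a replicate 3 ponzr4 stood at 9.99 CPM, ponzr3 at 19.3 and gvin1l2 at 13.0. These levels were below control but above every other treated library. Of their relatives ponzr1 was at 0.0045 (not called), ponzr5 fell by 0.86, and ponzr2 rose by 1.3004 ± 0.14. Close copies can share reads, so that single values are uncertain.

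Further shared lower genes with the largest change in that ranking were CYP2R1, SLCO2A1, leap2 and il4i1. CYP2R1, the vitamin D 25-hydroxylase, stood at 17.1, 18.5, 16.0 and 18.4 CPM in control, 1.64, 2.43, 2.05 and 2.70 with miR-101a and 1.22, 1.32 and 1.90 with miR-29a. The prostaglandin transporter SLCO2A1 stood at 10.5, 12.3, 12.5 and 11.4 CPM in control, 1.74, 1.47, 1.79 and 1.55 with miR-101a and 1.395, 1.64 and 1.76 with miR-29a, and the 2 microRNAs differed by -0.034 ± 0.16 (adjusted p = 0.89). leap2, an antimicrobial peptide of the liver, summed to 158 counts in control and to 3 with miR-101a, which is 52.98 times less after scaling to depth (exact 95% interval of the counts 17.8 to 260), and stood at 0.349, 0.0401 and 0.276 CPM with miR-29a. il4i1, an amino acid oxidase of immune cells in mammals, fell by 2.89 ± 0.28.

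Among the ranked shared higher genes with the largest change, arf4b, a small GTPase of vesicle traffic, stood at 0.563, 0.699, 0.182 and 0.636 CPM in control, 10.4, 8.92, 5.90 and 7.73 with miR-101a and 28.7, 17.03 and 23.8 with miR-29a. All miR-29a libraries lay above all miR-101a libraries, and these above control (difference between the microRNAs 1.49 ± 0.22, adjusted p = 2.3e-04). CHRNG, a subunit of the muscle acetylcholine receptor, stood at 4.46, 3.79, 3.35 and 3.34 CPM in control, 47.9, 37.5, 49.7 and 46.9 with miR-101a and 32.0, 39.5 and 36.9 with miR-29a. All 7 treated libraries used were more than 7-fold above the highest control library. cbx7a, a chromobox protein of Polycomb repressive complex 1, stood at 2.81, 2.502, 2.26 and 2.70 CPM in control, 19.3, 16.4, 17.7 and 16.5 with miR-101a and 35.3, 32.7 and 33.6 with miR-29a. ms4a17a.4, of a family of membrane proteins, rose by 4.18 ± 0.42, mucms1 by 3.28 ± 0.23 and the trypsin-like protease prss59.1 by 3.41 ± 0.42. The next subunit gene by size, CHRNA1, was at 0.24 with overlapping libraries. Of 16 genes of the receptor and its synapse 2 were shared higher, CHRNG and the receptor kinase musk (0.76 ± 0.11), and 2 shared lower.

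The lens list had the largest share of lower genes. The lens fibre cells fill with crystallins during the second day of development. Of 31 lens genes tested 28 were shared lower and 0 shared higher, with a median of -2.29 (-1.60 with miR-101a and -2.96 with miR-29a), and 27 of the 28 lay below control in miR-29a replicate 3. crygm2d14, a gamma crystallin, stood at 23.0, 25.5, 32.9 and 24.8 CPM in control, 1.93, 1.98, 2.76 and 1.28 with miR-101a and 1.13, 1.402 and 1.07 with miR-29a, with all treated libraries below all controls (pooled change -4.101 ± 0.14). crygm2d15 was at -3.57 ± 0.23 and crygm2d12 at -3.12 ± 0.22, but the crygm2d genes are close copies that can share reads. The fall was not limited to them: a copy of the water channel MIP (ENSDARG00000013963, -1.73), the filament protein BFSP2 (-2.29) and the lens transcription factor foxe3 (-0.96), named after their values were seen, were shared lower too. The 3 members outside the shared set, also at negative values, were CRYBA1 (-0.57, not called), BFSP1 (-1.31) and pitx3 (-0.38). The summed level of the list ran from 2683 to 3850.2 CPM in control, from 981 to 1279 with miR-101a and from 164 to 714 with miR-29a.

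In the list of retina and photoreceptors 16 of 32 genes were shared lower and 0 shared higher, and all 16 lay below control in miR-29a replicate 3. The median was -0.25 with miR-101a and -1.60 with miR-29a. The arrestin sagb fell by 2.44 ± 0.20 and a copy of RPE65 (ENSDARG00000007480), the visual cycle isomerase, by 2.07 ± 0.19. With no filter on low counts 1 member was shared higher.

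Red blood cells carry embryonic globins and make heme at this age. Of 28 erythroid genes 8 were shared lower and 3 shared higher (median -0.15). The median was -0.51 with miR-101a and -0.0098 with miR-29a, and the direct comparison was called in 17 of the 28. The summed level of the list was below control with both, at 4812 to 5356 CPM in control, 2519 to 2681 with miR-101a and 2672 to 3162 with miR-29a. The embryonic globin hbae3 stood at 2949, 3069, 2799 and 3116 CPM in control, 1145, 1199, 1201 and 1087 with miR-101a and 1299, 1230.1 and 1012 with miR-29a. All 7 treated libraries used were more than 2-fold below the lowest control library. alas2, whose enzyme starts erythroid heme synthesis, stood at 310.4, 286, 279.6 and 291 CPM in control, 121, 149.9, 121 and 133 with miR-101a and 127, 128 and 115 with miR-29a. UROD and CPOX, which act later in heme synthesis, rose by 0.89 ± 0.054 and 0.47 ± 0.055. In miR-29a replicate 3 hbae3 was above control, and with that library in the fit 5 members were shared lower.

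Of 39 genes of liver and yolk syncytial layer 12 were shared lower and 2 shared higher (median -0.17). Beside leap2 the steepest falls were in hpda, of tyrosine breakdown (-3.25 ± 0.33), a copy of the clotting factor F7 (ENSDARG00000075827, -2.37) and uox, the urate oxidase (-2.21 ± 0.28), while itih3a.1 (0.87 ± 0.085) and the complement component c9 (0.77 ± 0.080) rose. The summed level of the list ran from 19652 to 21518 CPM in control, from 14119 to 15541 with miR-101a and from 22374 to 27113 with miR-29a, so the groups lay on opposite sides of control. Without miR-101a replicate 4 there were 4 shared higher members, and with miR-29a replicate 3 in the fit 5 shared lower ones.

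Heart muscle genes were lower with both microRNAs in 6 of 22 cases and higher in 1, with a median of -0.18 with miR-101a and -1.52 with miR-29a. The natriuretic peptide nppa stood at 16.6, 17.6, 17.4 and 14.97 CPM in control, 6.01, 9.13, 7.92 and 8.89 with miR-101a and 1.61, 4.37 and 1.76 with miR-29a. Its 3 groups did not overlap, and the difference between the microRNAs was -1.62 ± 0.29 (adjusted p = 9.1e-04). A cardiac myosin, MYH7, was at -1.88 ± 0.21 and the transcription factor TBX5 at -1.305 ± 0.14, while GATA5 rose by 0.39 ± 0.081. With miR-29a alone GATA5 was at 0.31, and at 0.18 and not called (adjusted p = 0.12) when miR-29a replicate 1 was left out. With the 7 treated libraries as a single group, or with miR-29a replicate 3 in the fit, 3 members were shared lower, and without control replicate 2 there were 2 shared higher.

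In skeletal muscle 10 of 38 genes were shared lower and 4 shared higher. The median was -0.16 with miR-101a and -0.89 with miR-29a, and the direct comparison was called in 31 of the 38. The summed level of the list ran from 71284 to 83095 CPM in control and from 58928 to 75479 with miR-101a, which overlapped. With miR-29a it ran from 33276 to 42651, below control. The parvalbumin pvalb3 stood at 31.9, 41.3, 27.1 and 46.4 CPM in control, 11.99, 10.9, 10.6 and 12.02 with miR-101a and 10.6, 10.5 and 10.25 with miR-29a, and both ACTA1 copies, which encode skeletal actin, were lower (-1.36 ± 0.090 for ENSDARG00000036371 and -1.51 ± 0.13 for ENSDARG00000055618). The slow myosins smyhc1 (0.50 ± 0.057) and smyhc2 (0.49 ± 0.063) and the early muscle factor MYF5 (0.52 ± 0.10) rose instead. Without miR-29a replicate 1 there were 9 shared higher members. In all, 1 of the 4 shared higher and 4 of the 10 shared lower members lay on the same side of control in miR-29a replicate 3.

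Shared genes of the vessels, pigment cells, pancreas and pituitary were counted too. Of 31 endothelial genes 8 were shared lower and 1 shared higher (median -0.29), and the VEGF receptor kdrl stood at 49.0, 50.9, 42.4 and 53.7 CPM in control, 30.5, 28.3, 31.3 and 32.9 with miR-101a and 33.3, 33.6 and 37.4 with miR-29a. Without miR-101a replicate 3 there were 2 shared higher members. Of 18 melanophore genes 4 were shared lower, led by the melanosome protein pmelb (-1.81 ± 0.17), and 1 shared higher (2 without control replicate 2), with 0 counts for both mchr2 copies. The melanophore median was -0.31 with miR-101a and 0.0021 with miR-29a. Of 20 genes of purine and pteridine pigments 3 were shared in each direction, with pnp4a at -1.096 ± 0.13 and PAICS at 0.78 ± 0.083. The median of this list was -0.35 with miR-101a and 0.20 with miR-29a. Its summed level ran from 1552 to 1634 CPM in control, from 1308 to 1385 with miR-101a and from 1812 to 2187 with miR-29a. The groups thus lay on opposite sides of control. In the pancreas list 2 of 18 were shared higher, prss59.1 and pdx1 (0.72 ± 0.13), and 2 shared lower, gcga (-1.03 ± 0.19) and PTF1A (-0.85 ± 0.10). Neither gcga (2.79 CPM) nor PTF1A (10.24 CPM) lay below control in miR-29a replicate 3, and with that library in the fit 0 were shared lower and gcga was not called (adjusted p = 0.11). With miR-101a alone gcga was at -0.57, and at -0.34 and not called (adjusted p = 0.14) when miR-101a replicate 1 was left out. None of the 14 pituitary genes tested was shared (4 were called lower and 0 higher), with a median of 0.16 with miR-101a and -1.42 with miR-29a. Shared lower pituitary genes numbered 2 without miR-101a replicate 2 and 1 without control replicate 2.

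Neural progenitors, which divide and are held back from differentiation by Notch signals, had 14 of 28 genes shared lower and 0 shared higher (median -0.30). The Notch target her4.1 stood at 22.2, 21.0, 25.5 and 20.9 CPM in control, 14.5, 12.7, 13.8 and 13.4 with miR-101a and 13.6, 12.5 and 15.9 with miR-29a. Its treated and control libraries did not overlap, and its neighbours in name, her4.2 (-0.61 ± 0.10) and her4.4 (-0.62 ± 0.060), fell by a like amount but are close copies. In miR-29a replicate 3 her4.1 stood above control at 35.9 CPM, and with that library in the fit it was not called (adjusted p = 0.22). Of 38 genes of neurons and glia 7 were shared lower, among them OLIG2, a factor of motor neuron and oligodendrocyte precursors (-0.93 ± 0.088), and 2 shared higher, gap43 of growing axons (0.47 ± 0.054) and SYT1 of synaptic vesicles (0.21 ± 0.047). SYT1 stood below every control library in miR-29a replicate 3, at 65.1 CPM, and with that library in the fit it was not called (adjusted p = 0.17), and the list had 1 shared higher and 4 shared lower genes.

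Genes of DNA replication and mitosis moved in 1 direction, with 15 of 38 shared lower and 0 shared higher (median -0.28). The size was unequal, with a median of -0.11 with miR-101a and -0.50 with miR-29a. The direct comparison was called in 32 of the 38, beside 43.4% of all genes tested. The proliferation marker mki67 stood at 731, 764, 735 and 795 CPM in control, 504, 538, 483 and 551 with miR-101a and 459, 514 and 537 with miR-29a, a fall of 0.56 ± 0.049 that did not differ by a call between the microRNAs (adjusted p = 0.59). MCM2 of the replicative helicase fell by 0.61 ± 0.048 and the cyclin CCNA2 by 0.51 ± 0.039. Ribosome biogenesis had 9 of 25 shared lower and 0 shared higher, led by RRS1 (-0.55 ± 0.049) and DKC1 (-0.40 ± 0.046). With miR-29a replicate 3 in the fit the shared lower genes numbered 7 for replication, 1 for ribosome biogenesis and 6 for neural progenitors.

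Of 34 genes of the respiratory chain 17 were shared lower and 0 shared higher (median -0.21). All 17 are encoded in the nucleus. The cytochrome c oxidase subunit cox6b1 stood far from the rest, at 59.7, 64.3, 58.8 and 67.5 CPM in control, 20.4, 17.2, 19.2 and 13.3 with miR-101a and 19.4, 18.7 and 20.8 with miR-29a (pooled change -1.75 ± 0.085), while cycsb (-0.45 ± 0.046) and UQCRC2 (-0.37 ± 0.046) fell less. None of these 17 genes lay below control in miR-29a replicate 3, and with it in the fit none was shared.

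Of 16 genes of the microRNA machinery 1 was shared higher and 3 shared lower (median -0.20), and 1 was called higher and 7 lower. Their summed level ran from 1044 to 1177 CPM in control, from 787 to 949 with miR-101a and from 998 to 1096 with miR-29a, so it was below control with miR-101a and overlapped control with miR-29a. LIN28A (ENSDARG00000016999), which blocks processing of let-7, rose by 0.75 ± 0.12, and the silencing factors TNRC6A (-0.46 ± 0.048) and AGO4 (-0.34 ± 0.057) and the processing factor DGCR8 (-0.21 ± 0.039) fell. AGO4 stood at 12.6 CPM in miR-29a replicate 3, and with that library in the fit AGO4 (adjusted p = 0.32), LIN28A (0.27) and DGCR8 (0.071) were not called, and 1 gene was shared lower and 0 shared higher. Against a 1.2-fold minimum 1 was shared lower too. Without control replicate 3 there were 6 shared lower genes.

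Collagens, the fibres of skin, cartilage and basement membranes, were shared lower in 14 of 38 cases and higher in 1, with a median of -0.15 with miR-101a and -1.08 with miR-29a. All 14 lay below control in miR-29a replicate 3. COL10A1 (ENSDARG00000054753), of cartilage and bone, was at -1.17 and -3.51 with the 2 microRNAs, col5a2b at -1.201 and -2.97 and COL8A2 at -1.17 and -1.81, and the direct comparison was called in all 3 (adjusted p = 0.0034, 2.8e-04 and 0.0016). col17a1b, of skin attachment, was the shared higher member at 0.74 ± 0.060 with miR-101a, while with miR-29a alone it was at 0.16 ± 0.066 and not called (adjusted p = 0.053). It stood below every control library in miR-29a replicate 3, at 21.5 CPM, and with that library in the fit no collagen was shared higher. The direct comparison was called in 35 of the 38 collagens. With the 7 treated libraries as a single group 9 were shared lower, and without miR-29a replicate 1 or control replicate 1 there were 2 shared higher.

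Other matrix genes moved both ways, with 12 of 43 shared higher and 9 shared lower. The gelatinase MMP9 stood at 6.58, 8.28, 7.73 and 7.79 CPM in control, 28.2, 18.8, 33.0 and 18.8 with miR-101a and 203, 76.2 and 200.3 with miR-29a, with every miR-101a library above control and every miR-29a library above those. The collagen prolyl hydroxylase P4HA1 fell by 1.28 ± 0.076 and THBS4 (ENSDARG00000102777) by 1.22 ± 0.16.

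Reported targets of the 2 microRNAs, mostly known from mammals, were read in the same way. Of 38 reported miR-29 targets 15 were shared lower and 3 shared higher, with a median of -0.25 with miR-101a and -0.47 with miR-29a. Of the 15, 4 (col1a1a, col4a5, COL2A1 and COL1A1) are also in the collagen list. dnmt3ba, a DNA methyltransferase, stood at 265, 267, 239 and 269 CPM in control, 159, 154, 141 and 171 with miR-101a and 129, 136 and 142 with miR-29a. It fell with the microRNA it is not listed for (-0.73 ± 0.058) and slightly more with miR-29a (-0.94 ± 0.064, adjusted p of the difference 0.014). The demethylation enzyme TET1 was at -0.66 ± 0.13 and not called with miR-29a replicate 3 in the fit (adjusted p = 0.12), and HBP1 rose by 0.63 ± 0.068.

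Of 41 reported miR-101 targets 8 were shared lower and 7 shared higher, with a median of -0.055 with miR-101a and -0.018 with miR-29a. EZH2 stood at 92.5, 96.0, 95.2 and 97.4 CPM in control, 57.8, 64.8, 60.6 and 59.4 with miR-101a and 51.5, 55.2 and 56.0 with miR-29a. All 7 treated libraries lay below control, and the level was lower with miR-29a than with miR-101a (difference -0.16 ± 0.052, adjusted p = 0.020). The fibrillin FBN2, reported for both microRNAs, was at -0.70 with miR-101a and -0.90 with miR-29a. APLP2 (0.54 ± 0.057), the prostaglandin synthase PTGS2 (ENSDARG00000004539, 0.51 ± 0.075) and FOS (0.87 ± 0.22), all listed as targets of miR-101, rose.

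Epidermal genes differed more often upward than downward. Of 37 tested 16 were shared higher and 1 shared lower (2 without miR-101a replicate 3), with a median of 0.18. The plakophilin PKP1, of desmosomes, stood at 22.2, 22.0, 23.4 and 22.6 CPM in control, 49.6, 44.8, 46.9 and 44.5 with miR-101a and 61.1, 57.4 and 58.9 with miR-29a, without overlap between any 2 groups. The E-cadherin gene cdh1 stood at 81.2, 87.7, 83.6 and 92.2 CPM in control, 142, 153, 141 and 135 with miR-101a and 191, 176 and 199 with miR-29a, and the annexin ANXA1 rose by 0.89 ± 0.044. The keratin krt91 fell by 1.19 ± 0.10, and the summed level of the list, in which keratins weigh most, ran from 25236 to 25993 CPM in control, from 24998 to 29062 with miR-101a and from 20195 to 20700.4 with miR-29a.

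Genes of the tailbud and of segmentation, stages that precede the sampled age, moved in both directions, with 5 of 26 shared higher and 6 shared lower. The homeobox gene cdx4 stood at 0.736, 0.846, 0.838 and 0.834 CPM in control, 3.18, 2.18, 2.54 and 3.44 with miR-101a and 5.84, 4.21 and 4.31 with miR-29a. The ventral gene vox stood at 1.77, 1.47, 1.49 and 1.59 CPM in control, 4.31, 3.09, 4.97 and 4.13 with miR-101a and 14.7, 10.5 and 12.5 with miR-29a, and the notochord factor tbxta rose by 0.90 ± 0.18. noto (-1.16 ± 0.29) and both FGF8 copies (-0.87 ± 0.16 for ENSDARG00000039615 and -0.76 ± 0.11 for ENSDARG00000003399) fell. Without control replicate 4 there were 8 shared higher members, and 0 counts were found for both copies of wnt8a and for a copy of evx1 (ENSDARG00000099365).

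Among the remaining lists, 2 of 7 hatching gland genes were shared higher, PRDM1 (0.47 ± 0.062) and CD63 (0.59 ± 0.053). Ionocytes had 4 of 20 shared higher, led by SLC4A4 (ENSDARG00000013730, 0.68 ± 0.063), and 2 shared lower, led by the ammonium transporter RHCG (ENSDARG00000003203, -2.34 ± 0.39). Iron handling had 5 of 22 shared higher, among them the ferritin fthl28 (1.27 ± 0.093) and the reductase STEAP4 (1.201 ± 0.23), and 3 shared lower (5 without miR-101a replicate 4). Transferrin, tfa, was one of these but with unequal size, at -1.90 ± 0.079 with miR-101a and -0.19 ± 0.083 with miR-29a, and it was not called with the 7 treated libraries as a single group (adjusted p = 0.10).

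miR-29a replicate 3 and the size of change asked for moved further list counts by over 1.5 times. With that library in the fit the shared lower genes numbered 5 for endothelium, 5 for reported miR-101 targets, 4 each for the glucocorticoid response and skeletal muscle and 2 each for the p53 response and the tailbud. They numbered 1 each for melanophores, iron handling, heat shock, amino acid stress and sterol control, and 0 for sterol synthesis and epidermis. The shared higher genes then numbered 2 for the glucocorticoid response, 1 each for skeletal muscle and the acetylcholine receptor and 0 for endothelium. Of the genes described, XPC (adjusted p = 0.078), krt91 (0.053), smyhc2 (0.19), RRS1 (0.065), cycsb (0.49) and UQCRC2 (0.43) were not called in that fit. Against a 1.2-fold minimum the shared lower genes numbered 8 for neural progenitors, 7 for the respiratory chain, 3 for ribosome biogenesis, 2 for melanophores and 1 each for the p53 response, heat shock and iron handling. The shared higher genes then numbered 4 for reported miR-101 targets, 2 for ionocytes, 1 each for neurons and the glucocorticoid response and 0 for heart and endothelium, and XPC, AGO4, DGCR8, SYT1 and GATA5 were not called. With no filter on low counts the glucocorticoid response had 3 shared higher genes, at 1 CPM in 4 libraries the acetylcholine receptor list 1 shared lower, and with a single treated group the ionocytes 1 shared lower.

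**Figure D5:**
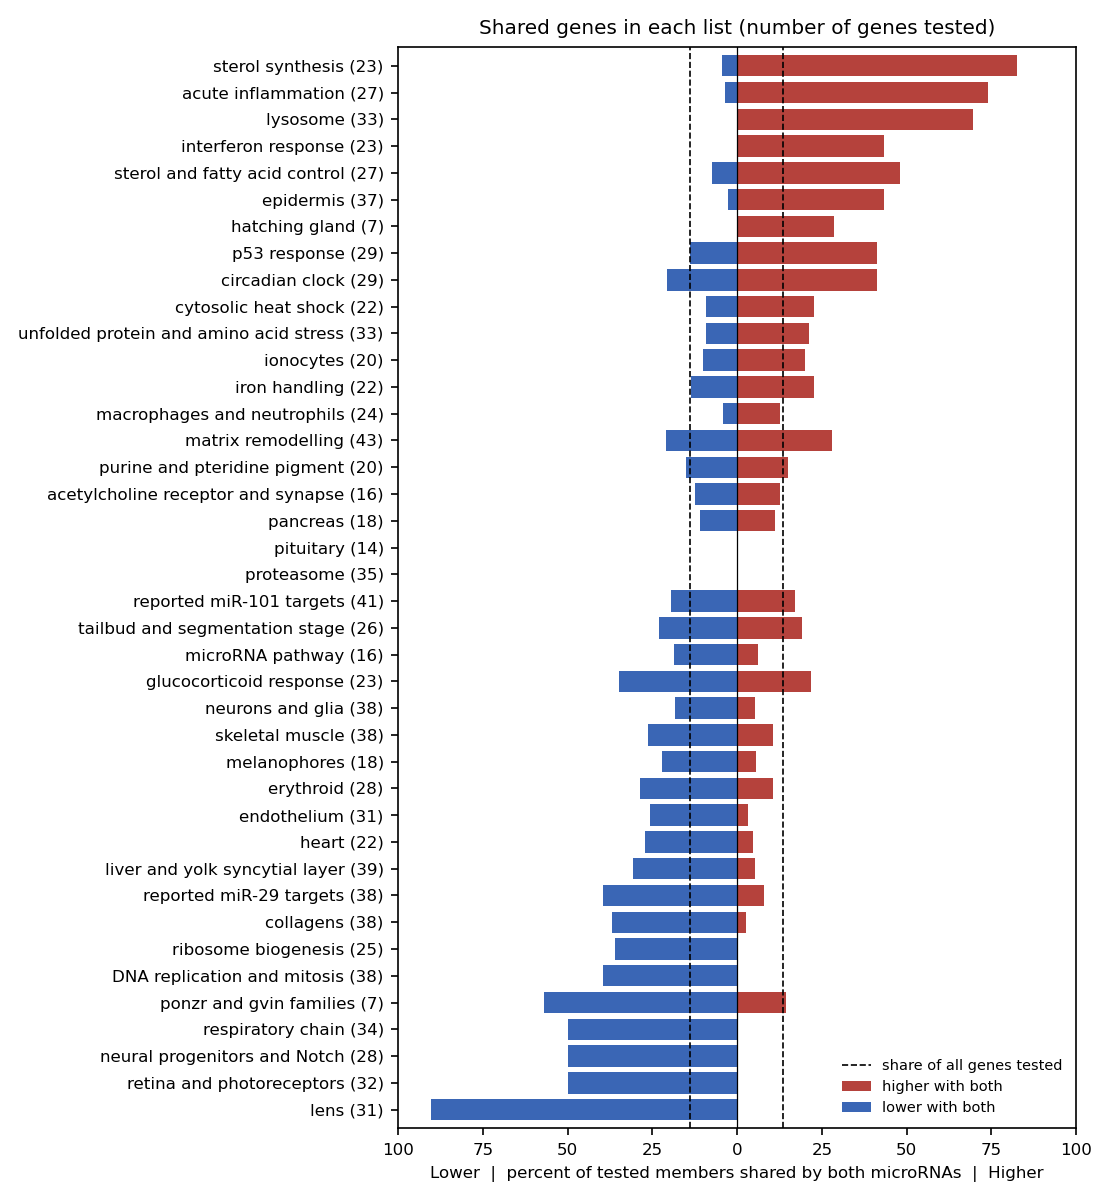
Percent of the tested members of each list (number tested in brackets) that were shared higher (red, to the right) or shared lower (blue, to the left). Dashed lines mark the shares of all genes tested, 13.6% higher and 14.0% lower. Sterol synthesis, acute inflammation and lysosome had the highest shares to the right and lens to the left.

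A shared direction did not mean a shared size. The direct comparison of miR-29a with miR-101a, taken from the same fit, called 9143 genes (43.4% of those tested). It called 1194 of the shared higher genes (41.6%) and 1183 of the shared lower genes (40.1%), which is close to the share over all genes. The change was larger with miR-29a in 882 of those 1194 and in 844 of those 1183. Over all shared genes the median log2 fold change was 0.58 with miR-101a and 0.68 with miR-29a for higher genes, and -0.36 and -0.40 for lower genes.

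Within shared genes that met the same CPM and symbol conditions, the widest differences included those in the cathepsin-like ctsll, the phosphatase ACP5 and the D-amino acid oxidase DAO (ENSDARG00000035602), higher with miR-29a, and in the mucin muc5.2 and CYP4V2 (ENSDARG00000062132), lower with miR-29a. ctsll stood at 3.16, 2.80, 3.65 and 2.74 CPM in control, 14.9, 4.41, 5.60 and 7.80 with miR-101a and 116, 86.5 and 125 with miR-29a, a difference between the microRNAs of 3.69 ± 0.33 (adjusted p = 3.5e-05). DAO stood at 85.8, 90.9, 82.4 and 97.2 CPM in control, 9.52, 2.28, 2.91 and 3.71 with miR-101a and 36.2, 24.8 and 38.6 with miR-29a, so the fall was the steeper with miR-101a. ACP5 fell in the same order (-3.83 ± 0.38 and -0.91 ± 0.35), though miR-101a replicate 1 stood at 14.4 CPM and the other miR-101a libraries between 3.96 and 4.75, and miR-29a replicate 3 at 148 CPM, above control. muc5.2 stood at 8.27, 7.25, 8.78 and 6.63 CPM in control, 2.19, 3.90, 4.59 and 2.47 with miR-101a and 0.392, 0.761 and 0.311 with miR-29a, and CYP4V2 was at -0.62 ± 0.19 and -3.30 ± 0.28. With the 7 treated libraries as a single group ACP5 (adjusted p = 0.057) and CYP4V2 (0.10) were not called against control.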

How the data were processed

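RNA of whole embryos was sequenced from 12 libraries with a TruSeq kit that does not mark strand, per the labels' protocols, so reads of a gene and of an overlapping antisense gene cannot be told apart. Per the submitters' processing notes, bcl2fastq 1.8.4, STAR 2.4.1d and featureCounts 1.4.6-p4 were used with genome build GRCz10. The authors deposited raw read counts per gene, which were used as deposited. The authors also deposited RPKM values, which were not used, since the tests need counts.

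edgeR 4.0.16 (R 4.3.3, limma 3.58.1) was run on 11 libraries with filterByExpr at a minimum count of 10, TMM scaling and a robust quasi-likelihood fit with 1 coefficient per group. The contrast was the mean of both microRNA groups minus control, and p-values were adjusted by Benjamini-Hochberg over all 21085 genes. TMM factors ran from 0.928 to 1.07. CPM were computed from TMM-scaled library sizes. The procedure was run on simulated data in which few genes changed, and by the same fold with both microRNAs. The real data differ in this, so the simulation does not settle how the procedure performs on them.

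Alternatives were RLE scaling, DESeq2 1.42.0, 2 other count filters, all 12 libraries, the replicate number as a block, the 7 treated libraries as 1 group, a test against a 1.2-fold minimum and leaving out each library in turn. Same-numbered libraries deviated with correlations between -0.15 and 0.26. The numbers were not taken as pairs, though these values do not settle whether they are. No 2 libraries held identical values.

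Members and lists were chosen with earlier results of these data known. Genes named were the 15 higher and 15 lower shared genes with a symbol that is not a clone or locus name, at least 1 CPM and the largest smaller fold change, up to 3 shared genes per list and direction by the same measure without a CPM minimum, and 3 per sign in the direct comparison. Named outside this rule, after their values were seen, were ACAT2, HMGCS1, DHCR7, GGPS1, EBP, F7, CHRNA1, MIP, BFSP2, foxe3, CRYBA1, BFSP1, pitx3, NR3C1, ponzr1, ponzr5 and a second copy of SQLE. Some genes that the rule names are not reported here. Of 32105 gene IDs 26269 had a symbol in the reference table, and 1084 of 1157 list entries were matched, 212 of them through a symbol that several IDs share. IDs without a symbol held 1.44% of counts. Where several IDs share a symbol the ID is given. Intervals and floors cover counting error only.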

Additional observations from a re-analysis of the deposited data

Results flagged for a closer look

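Within groups of 4, a library that stood apart from the other 3 by more than Dixon's 95% critical value (compared with its gap to the nearest library divided by the range of the group) was found in 20 of the 296 groups examined, for 148 genes given in the text. Chance flags about 1 in 20 groups. The explanations were not tested.

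In miR-101a replicate 1, which was the highest of its group in each case, the ratio was 0.995 for il11b, 0.924 for ACP5, 0.906 for lepb, 0.900 for mmp13a and 0.898 for cxcl18b. In miR-101a replicate 2 it was 0.910 for ponzr4 and 0.856 for rps27l. In miR-101a replicate 3 it was 0.926 and 0.921 for the MFAP4 copies ENSDARG00000088745 and ENSDARG00000090557 and 0.902 for NPC2 (ENSDARG00000096979).

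Control replicate 3 stood apart in crygm2d18 (0.938), gap43 (0.905), COL10A1 (ENSDARG00000054753, 0.895), SOAT2 (0.877), dnmt3ba (0.854), noto (0.851) and col5a2b (0.846). Control replicate 1 did so in nr1d2a (0.897) and cdx4 (0.889), and control replicate 4 in NPC2 (0.905).

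A signal was also present in the library left out of the main comparison. In miR-29a replicate 3, 79.5% of the shared higher genes lay above every control library, against 47.1% of all tested genes, and 60.3% of the shared lower genes below every control library, against 42.5% of all tested genes.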

How the results depend on the processing

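The counts of called genes depended on miR-29a replicate 3. With all 12 libraries 3218 genes were called higher and 2127 lower in the pooled comparison (60.2% of calls higher, against 48%), 1348 were shared lower, and 3730 were called between the microRNAs. With the 7 treated libraries as a single group 3692 were called lower. Against a 1.2-fold minimum 2901 were called higher and 2124 lower, 1555 were shared lower and 4263 were called between the microRNAs, as that test asks for a larger change. Leaving out each library in turn gave 4726 to 5403 called higher, 5173 to 5802 called lower, 3016 to 3205 shared higher, 2814 to 3294 shared lower and 7372 to 9126 called between the microRNAs. Of the values of these 5 counts under all alternatives 85 were within 1.5 times of the value reported and 9 were not. The replicate number as a block gave 5377 higher, 5929 lower, 2861 and 2942 shared and 8921 between the microRNAs. Whether same-numbered libraries share more than a number is not stated. Of the 11 libraries 3 correlated best with one of their own number. What unpaired libraries would give was not computed, so this count does not decide the question.

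Among gene values, 3513 kept their direction and side of the threshold and 68 were no longer called, of which 29 with all 12 libraries and 20 against a 1.2-fold minimum. GADD45B (ENSDARG00000027744), at -0.18, turned to 0.032 with all 12 libraries (adjusted p = 0.94). The cause was not tested for the changes with all 12 libraries and with a single treated group. List counts stayed within 1.5 times in 1434 cases and moved further in 86, 32 of them with all 12 libraries. Where a library was left out or added, part of the move follows from the definition of a shared gene. Where a gene had few counts, as il11b and leap2, depth limits its fold.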
